A study of Mus musculus with 15 samples.

Results

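The genes of antibody-producing cells were followed through bleomycin injury of the mouse lung. The 10 genes were the heavy chain constant genes Ighm, Ighd, Ighg1, Ighg2b, Ighg2c, Ighg3 and Igha, the kappa light chain constant gene Igkc, and the plasma cell genes Jchain and Mzb1. These 10 rows were taken by symbol from a table of 33340 genes, and all 10 were among the 17457 genes tested. The family came to notice through the day 7 level of Ighg2c, so the genes were in part chosen by values of these libraries. For that reason day 7 against day 0 and day 14 against day 7 are given as a description, with no p, and counts past a threshold are printed for them without being read as a result. The tests of the days after day 7 against day 0 use the same day 0 libraries as the first of these comparisons. Their p-values and calls are therefore not free of the choice of genes, and the size of that effect was not tested.

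The libraries were made from polyadenylated RNA of whole lungs of C57BL/6 mice, adult males by the study's methods. Day 0 mice were untreated controls (4 libraries), and the others were taken at day 7 (4 libraries), day 14 (4 libraries) and day 21 (3 libraries) after bleomycin was given into the trachea at 5 U/kg. Bleomycin breaks DNA and leaves fibrotic lungs in mice. Day 0 had no group given a vehicle, so the procedure and the drug cannot be told apart. The title of day 0 replicate 4 calls it a control, but bleomycin stands in its treatment label. It was grouped by the title. The labels do not say that each library is a separate animal, so the p-values measure the spread between libraries.

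A B cell first carries IgM and IgD on its surface, made from Ighm and Ighd by alternative splicing of the same transcript. Class switching then joins its variable region to another constant gene, which gives the IgG subclasses or IgA, and the activated cell can become a plasma cell that secretes antibody in large amounts. Ighg2c is the C57BL/6 counterpart of the IgG2a gene of some other strains. The J chain, encoded by Jchain, links IgM and IgA into polymers, and the polymeric immunoglobulin receptor Pigr carries them across airway epithelium. Mzb1 encodes an endoplasmic reticulum chaperone that helps heavy and light chains to be assembled.

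The 4 IgG genes are related in sequence, and their hinge exons, which form the flexible joint of the antibody, differ in length and in cysteine codons. The hinges are shown because the results below turn on which IgG gene the counts were given to. They were read 5′ to 3′ on the minus strand of GRCm38/mm10 from the GENCODE M21 transcripts, with the in-frame cysteine codons in capitals.
Ighg1: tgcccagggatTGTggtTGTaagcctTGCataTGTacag
Ighg2b: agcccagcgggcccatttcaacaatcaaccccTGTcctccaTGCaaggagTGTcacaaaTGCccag
Ighg2c: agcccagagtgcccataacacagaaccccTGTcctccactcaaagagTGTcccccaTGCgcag
Ighg3: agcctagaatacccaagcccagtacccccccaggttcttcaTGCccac
The hinge exons span chr12:113329844-113329882 (Ighg1), chr12:113307261-113307326 (Ighg2b), chr12:113288263-113288325 (Ighg2c) and chr12:113360529-113360576 (Ighg3), and all are coding. Ighg1 and Ighg2b each hold 4 cysteine codons, Ighg2c holds 3 and Ighg3 holds 1.

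IgM and IgA share the feature by which the J chain joins them, a tailpiece whose next-to-last codon is a cysteine. The last 54 coding bases of the secreted forms are shown for that codon, in capitals.
Ighm: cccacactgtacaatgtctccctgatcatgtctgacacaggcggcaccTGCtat
Igha: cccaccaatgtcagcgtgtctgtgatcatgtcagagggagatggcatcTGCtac
The first lies at chr12:113420870-113420923 and the second at chr12:113258771-113258824, in the last exon of the secreted transcript. Each has 1 cysteine codon in this stretch.

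The likeness of the constant genes was measured because reads are counted for a gene by their sequence. Over the secreted coding sequence, Ighg2b and Ighg2c were identical at 85.9% of 1004 aligned bases and shared an exact run of 78 bases. That run is shown as the longest stretch in which these genes cannot be told apart, and it is shorter than the reads.
shared run: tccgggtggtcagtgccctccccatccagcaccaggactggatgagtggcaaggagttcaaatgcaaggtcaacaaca
It lies in exon 3 at chr12:113306869-113306946 in Ighg2b and at chr12:113287869-113287946 in Ighg2c. The other IgG pairs were identical at 74.8% to 77.4% of aligned bases, while Ighm and Igha were identical at 58.0%. No window of 150 bases, the read length, was found unchanged in another constant gene, and reads with several alignments had been excluded. The gene counts add the secreted and membrane-bound forms, and the spread of reads between them is not given by the table.

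Total counts were 15652008 to 18020661 per library. All immunoglobulin gene segments together took 0.0102% to 0.315% of them, and the 10 genes took 1467 to 41946 counts per library. Values below are CPM, counts scaled to a common depth, with library totals adjusted by TMM factors. A gene was called at a Benjamini-Hochberg adjusted p under 0.05 with a fold change over 1.5 in edgeR's quasi-likelihood test over all 17457 genes. Libraries of the same day also differed in the share of mitochondrial counts, which was 2.28% and 2.31% in day 0 replicates 1 and 2 and 4.04% and 4.22% in replicates 3 and 4. It was 2.03% to 2.15% over day 7, 2.102% in day 14 replicate 1, 3.74% to 4.14% in the other day 14 libraries and 2.66% to 4.01% over day 21.

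The lung tissue was recognisable by Sftpc, the alveolar type II surfactant gene, at 2213 to 25096 CPM and by the endothelial gene Pecam1 at 408 to 884 CPM. B cell genes were detected at day 0, with Ms4a1, which encodes CD20, at 10.1 to 25.8 CPM. The defining plasma cell receptor Tnfrsf17 reached only 0.736 CPM and was not tested for lack of counts.

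**Figure D1:**
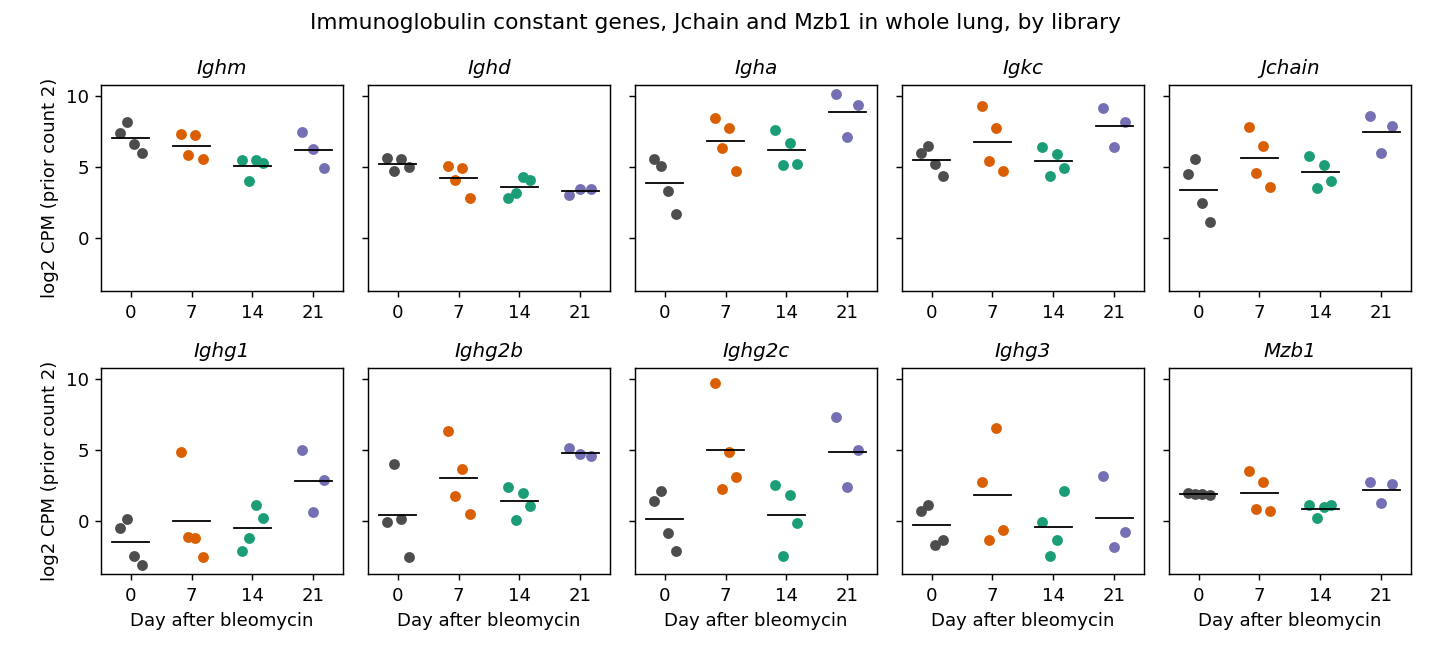
Levels of the 10 genes in each library, as log2 CPM with a prior count of 2, against the day after bleomycin. Each point is a library, and the horizontal line is the mean of the day. Ighd is lower at days 14 and 21 than in any day 0 library, while Igha and Jchain lie above every day 0 library at day 21, and single libraries stand far above the rest for Ighg2c (day 7 replicate 1) and for Ighg3 (day 7 replicate 3). Ighg1 is highest in day 21 replicate 1 (32.2 CPM) and day 7 replicate 1 (28.7 CPM).

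The unswitched genes Ighm and Ighd were lower at day 14 than at day 0, and at day 21 Ighd was still lower. Ighd was at 49.1, 26.1, 47.7 and 31.6 CPM in the 4 day 0 libraries. At day 14 it was at 7.03, 8.99, 20.0 and 17.0 CPM, and at day 21 at 8.04, 11.1 and 11 CPM. No library of either later day reached the lowest day 0 library. Ighd fell by 1.54 on the log2 scale at day 14 (SE 0.41, adjusted p = 0.00955) and by 1.94 at day 21 (SE 0.46, adjusted p = 0.00542). At day 7 it was at 33.1, 17.1, 30.6 and 6.96 CPM, which overlapped day 0.

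Ighm, the IgM heavy chain, was at 168, 283, 99.1 and 62.7 CPM at day 0 and at 45.4, 15.8, 45.1 and 39.7 CPM at day 14, with no overlap. It fell by 2.07 on the log2 scale at day 14 (SE 0.58, adjusted p = 0.0124). At day 21 the libraries were far apart, at 175, 76.3 and 30.2 CPM, spanning most of the day 0 range. The log2 difference from day 0 was then -0.70 (SE 0.61, adjusted p = 0.412), and it was -1.56 without day 21 replicate 1. In day 7 libraries Ighm was at 161, 57.8, 156 and 46.8 CPM.

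Of the 10 genes, these 2 were called lower at day 14 and 0 were called higher, where 11.2% of all genes tested were called lower and 12% higher. The median log2 difference of the 10 genes at day 14 was 0.16, against 0.02 over all genes tested. DESeq2 and limma voom each also called 2 lower and 0 higher. In edgeR 3 of the 10 had an unadjusted p under 0.05, a count from which nothing is read, as the share over all genes is not given. Within the libraries of higher mitochondrial share alone (day 0 replicates 3 and 4 against day 14 replicates 2 to 4), Ighm was no longer called (log2 difference -1.28, adjusted p = 0.0512). In that smaller fit Igha, Jchain and Ighg1 were called higher.

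Genes of B cell identity fell together with Ighd. Of 12 such genes, 8 were called lower and 0 higher at day 14, and 11 lower and 0 higher at day 21, with median log2 differences of -1.44 and -1.87. Over all genes tested, 11.2% and 10.1% were called lower on these days. Within the libraries of higher mitochondrial share, 2 of the 12 were called lower at day 14. Ms4a1 was at 10.1 to 25.8 CPM at day 0, 1.98 to 10.3 CPM at day 14 and 1.98 to 5.76 CPM at day 21, and fell by 1.501 at day 14 (SE 0.53, adjusted p = 0.0413) and by 2.34 at day 21 (SE 0.62, adjusted p = 0.0102). Cd79a, the signalling chain of the B cell receptor, fell by 1.70 and 1.94. Pax5, the transcription factor that keeps B cell identity, fell by 1.57 and 2.09, and Fcrla, an Fc receptor-like protein of B cells, by 1.68 and 1.84. Cr2, the complement receptor, was called at day 21 alone (log2 difference -1.74). The summed level of the 12 genes was 149.5 to 246 CPM at day 0, 62.1 to 210.3 at day 7, 38.4 to 135 at day 14 and 48.4 to 75.3 at day 21.

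In bulk tissue, fewer cells of a type and less RNA per cell cannot be told apart. Red cell genes fell on the same days. All 5 of 5 were called lower at day 14 and at day 21 (11.2% and 10.1% of all genes), with median log2 differences of -1.64 and -2.64, and their summed level was 1302 to 4352 CPM at day 0, 498 to 1389 at day 7, 646 to 1708 at day 14 and 398 to 703 at day 21. Of 5 T cell genes, 1 was called lower at day 14, Cd8b1 of the CD8 receptor, and 0 at day 21. All 5 had negative log2 differences on both days, with medians of -0.86 and -0.78. Their sum was 15.5 to 29.3 CPM at day 0, 12.8 to 41.1 at day 7, 10.1 to 17.8 at day 14 and 6.21 to 21.6 at day 21. The part of blood content in the fall of the B cell genes was not tested. Without day 0 replicate 1, day 0 replicate 3, day 14 replicate 1 or day 14 replicate 2, 4 B cell genes were called lower at day 14 in place of 8. Without day 21 replicate 1 or replicate 2, 7 and 5 were called lower at day 21 in place of 11.

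**Figure D2:**
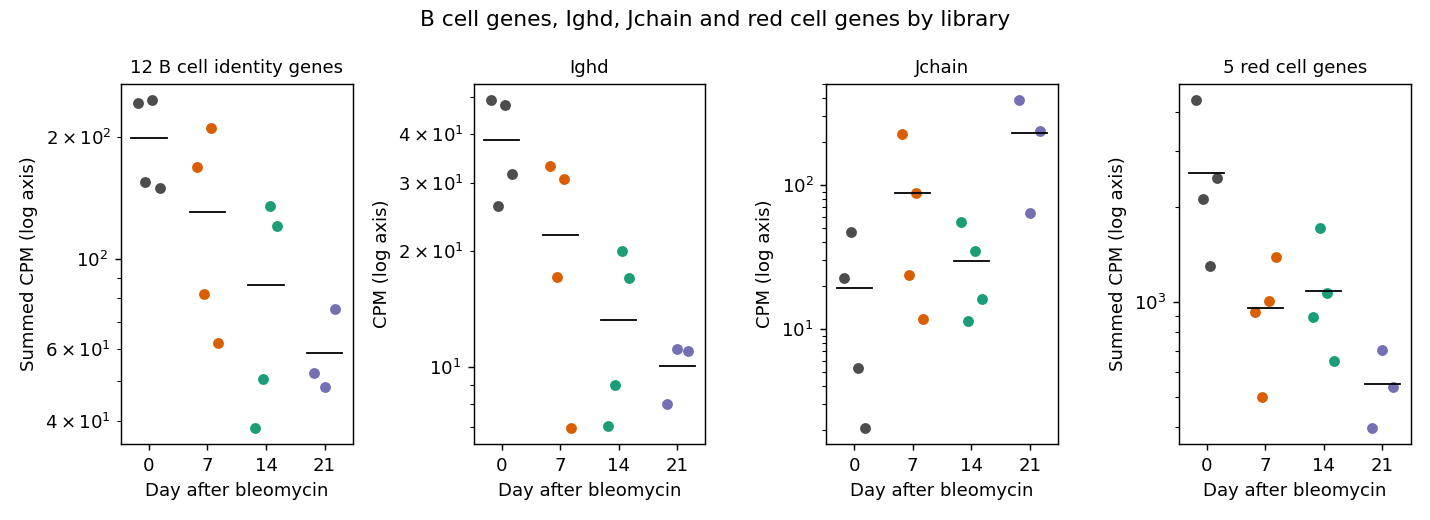
Summed CPM of 12 B cell identity genes, CPM of Ighd and of Jchain, and summed CPM of 5 red cell genes in each library, against the day after bleomycin, on log axes that do not start at 0. Points are libraries and lines are arithmetic means of a day. The B cell sum is 149.5 to 246 CPM at day 0 and 48.4 to 75.3 CPM at day 21, while Jchain is 2.06 to 46.9 CPM at day 0 and 63.8 to 389 CPM at day 21, and the red cell genes are lower at day 21 than at day 0.

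Of the other 8 genes, 5 were called higher at day 21. Igha, the IgA heavy chain, was at 46.4, 33.1, 9.97 and 3.07 CPM at day 0. It was at 351, 81.5, 220.4 and 25.8 CPM at day 7, at 199.9, 34.4, 104 and 36.9 CPM at day 14 and at 1115, 142 and 672 CPM at day 21. Every day 21 library lay above every day 0 library, though the day 21 libraries themselves spanned a wide range. Igha was raised 27.9-fold at day 21 (log2 difference 4.80, SE 1.01, adjusted p = 0.00232). At day 14 the log2 difference was 2.02 (SE 0.88, adjusted p = 0.0902), which was not called, with 2 of 4 libraries above all of day 0. This depended on the processing, since Igha was called higher at day 14 without the filter on low counts (adjusted p = 0.0338), with the percentage of mitochondrial counts entered as a covariate (0.0425), and within the libraries where it was higher (log2 difference 3.16, adjusted p = 0.0132).

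Jchain was at 22.7, 46.9, 5.40 and 2.06 CPM at day 0 and at 389, 63.8 and 237 CPM at day 21. The groups did not overlap, and Jchain was raised 11.95-fold (log2 difference 3.58, SE 1.02, adjusted p = 0.0151). It was at 227, 23.8, 87.8 and 11.8 CPM at day 7 and at 55.8, 11.4, 34.7 and 16.2 CPM at day 14, where the log2 difference from day 0 was 0.62 (SE 0.92, adjusted p = 0.639).

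Igkc, the constant part of nearly all light chains counted here, was at 64.1, 90.8, 37.5 and 20.6 CPM at day 0 and at 584, 83.1 and 287 CPM at day 21, so that day 21 replicate 2 lay within the day 0 range. The log2 difference was 2.58 (SE 0.89, adjusted p = 0.0396). At day 7 Igkc was at 627, 43.6, 214 and 26.2 CPM, and at day 14 it was at 86.7, 20.6, 61.7 and 30.8 CPM, overlapping day 0 on both days.

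Among the IgG genes, Ighg2c and Ighg1 were called higher at day 21 in edgeR, and Ighg2b and Ighg3 were not called. In limma voom the calls were other ones. Ighg2b was called there, with a log2 difference of 4.77 (adjusted p = 0.0258) against 2.63 in edgeR. Ighg2c (5.01, adjusted p = 0.248) and Ighg1 (5.12, adjusted p = 0.0718) were not called in voom, at log2 differences close to those of edgeR. Ighg2c was at 2.59, 4.23, 0.444 and 0.112 CPM at day 0 and at 162, 5.07 and 31.3 CPM at day 21, without overlap (log2 difference 5.17, SE 1.70, adjusted p = 0.0313). Ighg1 was at 0.583, 0.967, 0.0635 and 0 CPM at day 0 and at 32.2, 1.42 and 7.24 CPM at day 21, also without overlap (log2 difference 5.06, SE 1.66, adjusted p = 0.0310). Both rested on few counts at day 0, with 2 to 70 per library for Ighg2c and 0 to 16 for Ighg1. With the mitochondrial percentage as a covariate, Ighg1 was not called (log2 difference 4.54, adjusted p = 0.0778).

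Ighg2b was at 35.5, 25.9 and 23.7 CPM at day 21, the most even of the IgG genes on that day, and above all day 0 libraries. Its day 0 libraries held 0.841, 16.3, 1.02 and 0.0558 CPM, and the log2 difference of 2.63 was not called (SE 1.21, adjusted p = 0.116). Without day 0 replicate 2, which held the 16.3 CPM, the log2 difference was 5.47 (adjusted p = 0.00821). Ighg3 was at 9.03, 0.171 and 0.471 CPM at day 21, against 0.190 to 2.06 CPM at day 0 (adjusted p = 0.487).

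Mzb1 was not called on either day with all libraries in the model. It was within a narrow range of 3.40 to 3.82 CPM at day 0 and at 6.49, 2.34 and 6.06 CPM at day 21 (log2 difference 0.44, SE 0.55, adjusted p = 0.583). At day 14 it was at 2.07, 1.02, 1.83 and 2.11 CPM, under all day 0 libraries (log2 difference -1.05, SE 0.53, adjusted p = 0.147). In a fit of the day 0 and day 14 libraries alone it was called lower (log2 difference -1.07, adjusted p = 0.0131). Mzb1 shares 695 exon bases with a neighbouring gene on the same strand, annotated as SPATA24, and reads there match both annotations.

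At day 21, 5 of the 10 genes were called higher (Igha, Jchain, Igkc, Ighg2c and Ighg1) and 1 lower (Ighd), where 12.4% of all genes tested were called higher and 10.1% lower. The median log2 difference of the 10 genes was 2.61, against 0.02 over all genes tested. DESeq2 also called 5 higher and 1 lower. Limma voom called 3 higher and 1 lower, with Ighg2b among them and without Ighg2c, Ighg1 and Igkc (adjusted p = 0.0678). A good part of this rests on day 21 replicate 1, which had 0.302% immunoglobulin counts. Without it 2 of the 10 genes were called, and the log2 differences were 4.11 for Igha and 2.94 for Jchain (adjusted p = 0.0577). Without it they were 3.28 for Ighg2c (adjusted p = 0.187), 3.38 for Ighg1 (adjusted p = 0.169) and 1.77 for Igkc (adjusted p = 0.190). Without day 0 replicate 2 they were larger, at 4.49 for Jchain, 5.98 for Ighg2c and 5.96 for Ighg1. Without day 0 replicate 1, 3 or 4, 3 of the 10 genes were called. The log2 differences of the genes whose calls were lost then stayed near those with all libraries, at 4.60 to 5.25 for Ighg1, 4.72 to 5.34 for Ighg2c and 2.28 to 2.64 for Igkc.

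Between day 14 and day 21, 0 of the 10 genes were called in edgeR, DESeq2 or limma voom, where edgeR and limma voom called 0 of all genes tested (0%) and DESeq2 called 106. Of the 10, 8 had an unadjusted p under 0.05 in edgeR. The share of all genes with such a p is not given here, and nothing is read from that count. The lowest adjusted p was 0.370, shared by Igha (log2 difference 2.78, SE 0.93), Igkc (2.67, SE 0.90) and Jchain (2.96, SE 0.99). The log2 difference was positive for 9 of the 10 genes and negative for Ighd (-0.40, SE 0.45), with a median of 2.72 over the 10.

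**Figure D3:**
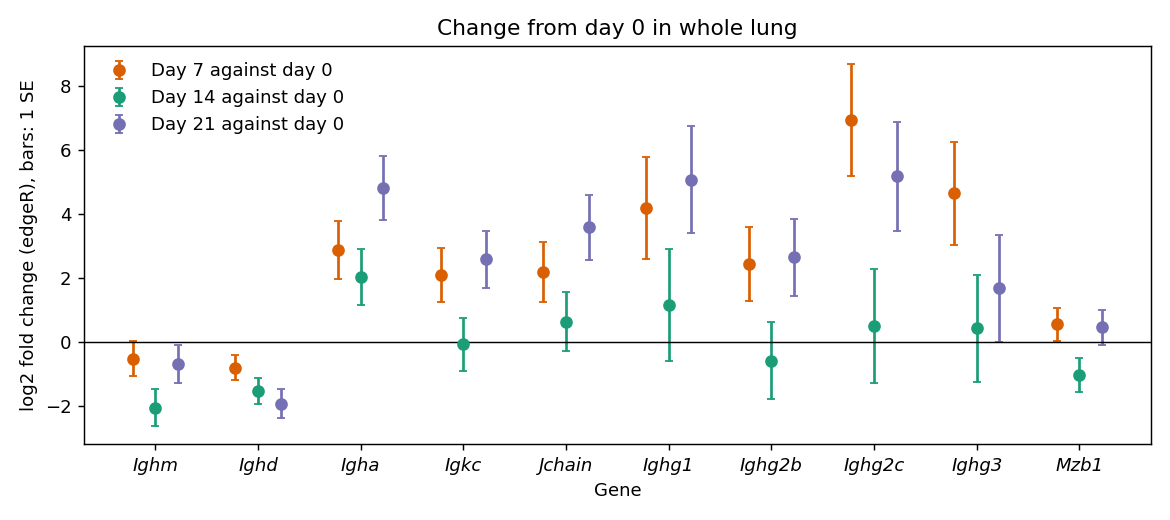
Log2 fold change of the 10 genes at days 7, 14 and 21 against day 0 from edgeR, with bars of 1 SE. The 3 comparisons share the day 0 libraries. Igha, Jchain, Igkc, Ighg1 and Ighg2c lie above 0 at day 21 (log2 differences 2.58 to 5.17), Ighd lies below 0 at days 14 and 21, and the IgG genes have the widest bars.

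Day 7 was marked by uneven libraries. Ighg2c was at 851 CPM in replicate 1, at 28.9 CPM in replicate 3, and at 4.69 and 8.44 CPM in replicates 2 and 4. All 4 were above the highest day 0 library (4.23 CPM), and the log2 difference was 6.93 with all libraries and 2.91 without replicate 1. Ighg3 was highest in another library, at 93.0 CPM in replicate 3, against 6.57, 0.279 and 0.535 CPM in replicates 1, 2 and 4. Ighg1 was at 28.7 CPM in replicate 1 and at 0.335, 0.330 and 0.0595 CPM in the others, and Ighg2b was at 80.5, 3.29, 12.5 and 1.31 CPM. So the leading IgG gene differed between day 7 replicate 1 and replicate 3.

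Against day 0, the 3 genes Ighg2c, Ighg3 and Igha were past the thresholds of a call at day 7 and 0 genes were past them in the lower direction, where 8.78% of all genes tested were called higher and 7.36% lower. Without day 7 replicate 1, 0 of the 10 genes were past them. Leaving out day 0 replicate 3 or 4 or day 7 replicate 3 left 1 gene past them, and leaving out day 7 replicate 4 gave 5. From day 7 to day 14, Ighg2c alone was past them, in the lower direction (log2 difference -6.45, and -2.46 without day 7 replicate 1), where 3.23% of all genes were called lower and 2.77% higher. No gene of the 10 was past them without day 7 replicate 1 or without day 14 replicate 2, 3 or 4, and 2 were without day 7 replicate 2. These comparisons are part of what the genes were chosen by, and nothing is read from the counts.

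The composition of heavy chain classes was compared as counts per kb of exon, each gene as a share of the 7 heavy chain genes. Exon length took in all annotated exons of a gene, and was 1886 bases for Ighm, 2668 for Igha and 1326 for Ighg2c. The shares per kb depend on these lengths. Ighm and Ighd together made 84.8% to 97.3% of the day 0 libraries. They made 11.2% to 62.9% at day 7, 25.4% to 63.6% at day 14 and 7.06% to 40.8% at day 21. Every later library was under every day 0 library in this share. Ighm led in all 4 day 0 libraries, whereas Igha led in 3 of 4 at day 14 and in all 3 at day 21, per kb and in raw counts alike. At day 7 Ighm and Igha were level per kb in replicate 2 (40.8% and 40.6%) and in replicate 3 (33.8% and 33.7%). In raw counts Igha was ahead in both, at 49.4% against 35.0% and at 40.7% against 28.8%.

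The IgA share was higher in each later library than in any day 0 library. Igha made 2.24% to 12.9% at day 0, 14.3% to 40.6% at day 7, 29.3% to 68.6% at day 14 and 46.8% to 81.5% at day 21. The 4 IgG genes together made 0.422% to 5.61% at day 0, 6.65% to 74.6% at day 7, 2.09% to 7.18% at day 14 and 11.5% to 22.7% at day 21. Day 7 replicate 1 stood alone, with Ighg2c at 69.8% of the heavy chain level per kb. In raw counts this was 15029 of 26682 heavy chain counts, 56.3% (95% Wilson interval 55.7% to 56.9%). Within the IgG genes, Ighg2c had the largest share in the other day 7 libraries except replicate 3, where Ighg3 made 15.1% and Ighg2c 8.90%. At day 21 replicate 2 the largest IgG share was that of Ighg2b, 8.52%. PCR copies of a molecule are counted separately, so the intervals hold counting error alone. A share can rise because other classes fall, and in the day 14 libraries the CPM of Ighm was lower.

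**Figure D4:**
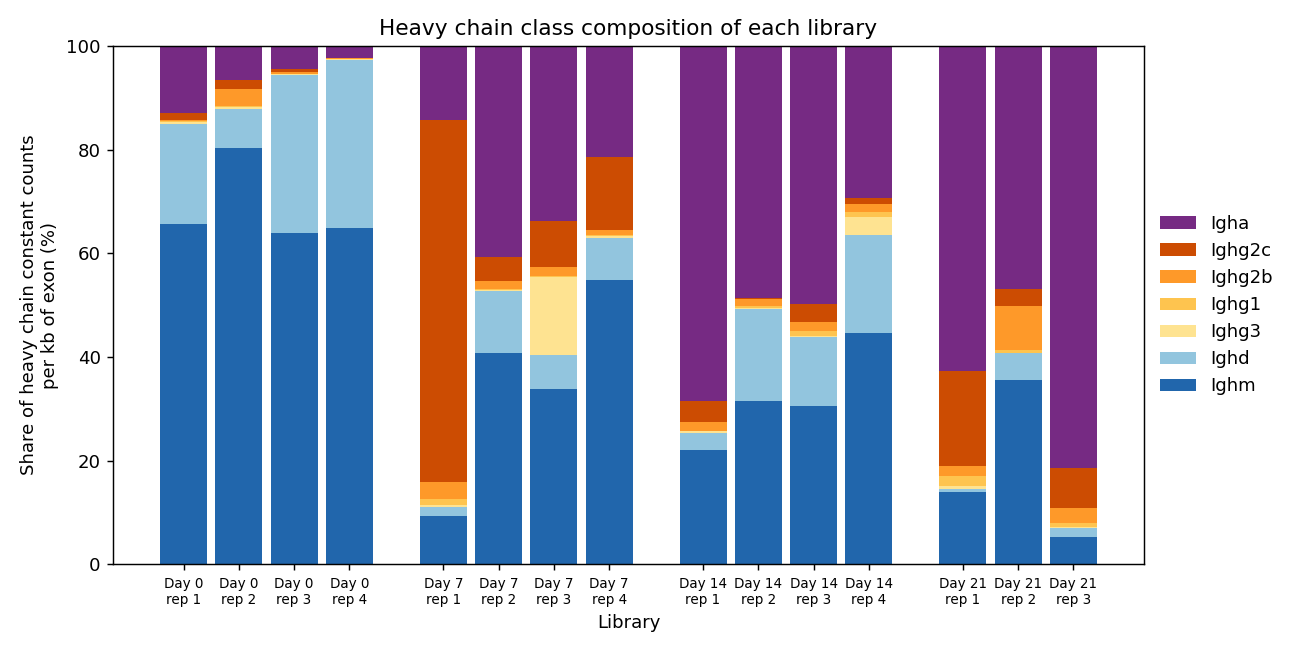
Share of each heavy chain constant gene in the summed counts per kb of exon of the 7 genes, as stacked bars to 100%, for each library. The blue parts, Ighm and Ighd, fill 84.8% to 97.3% of the day 0 bars and 7.06% to 40.8% of the day 21 bars, where the purple part, Igha, fills 46.8% to 81.5%. Ighg2c fills 69.8% of the bar of day 7 replicate 1.

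Ordered by mean level per kb, Igkc was first on every day. At day 0 it was followed by Ighm (81.2 CPM per kb, SD 51.4, n = 4), Ighd (20.3, SD 6.05) and Igha (8.67, SD 7.55). Ighm and Ighd did not overlap, and Igkc overlapped Ighm (100.1 CPM per kb, SD 57.8). At day 21 Igkc (598 CPM per kb, SD 474, n = 3) was followed by Igha (241, SD 183), Jchain (91.4, SD 64.7) and Ighm (49.8, SD 39.3), and each of these overlapped the next. Mzb1 stayed between 1.45 and 4.36 CPM per kb in the day means. The order depends on exon length, which was 532 bases for Igkc. In CPM, Ighm was above Igkc in each day 0 library, and Igha was above Igkc in each day 21 library.

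Light chain use was dominated by kappa. Igkc made 90.9% of the light chain constant counts in day 0 replicate 3 (95% Wilson interval 88.5% to 92.9%), the lowest library, and 98.8% in day 7 replicate 1 (98.5% to 99.0%), the highest. Iglc1, a lambda constant gene, was at 31.2, 3.53 and 4.24 CPM at day 21 against 0.446 to 4.54 CPM at day 0, and was called higher (log2 difference 2.61, SE 0.88, adjusted p = 0.0359), with 2 of 3 libraries inside the day 0 range. Iglc1 was not called in DESeq2 or limma voom, nor without day 21 replicate 1 or without day 0 replicate 1, 3 or 4. Iglc2 and Iglc3, which share 130 windows of 25 bases, stayed at or under 4.47 CPM and were not called.

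Igha, Igkc and Jchain followed each other closely across libraries. After the mean of each day was taken off, the Pearson correlation of log2 CPM over 15 libraries was 0.96 for Igha and Jchain, 0.91 for Igha and Igkc and 0.94 for Igkc and Jchain. It was as high for some other pairs, at 0.94 for Ighg2c and Igkc and 0.91 for Ighg2c and Jchain. For other pairs it was lower, as for Ighd and Jchain at 0.32. All points share the library's depth and its content of antibody RNA, and no p is given.

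Genes of plasma cell function did not move as a block. Of 14 listed, 13 were tested; 3 were called higher and 3 lower at day 14 (median log2 difference 0.29), and 1 higher and 1 lower at day 21 (median 0.29). Over all genes tested, 12% were called higher and 11.2% lower at day 14, and 12.4% and 10.1% at day 21. Within the libraries of higher mitochondrial share, 1 plasma cell gene was called higher and 0 lower at day 14. Prdm1, the master regulator of plasma cells, which other cells also express, fell by 0.76 at day 14 (SE 0.20, adjusted p = 0.00894) and by 0.68 at day 21 (SE 0.22, adjusted p = 0.0273). Xbp1, which drives the secretory apparatus, was at 219.9 to 336 CPM in all libraries and was not called. Sdc1, the surface syndecan of plasma cells that lung epithelium also makes, rose by 0.65 at day 14 (SE 0.13, adjusted p = 0.00135), from 251 to 298 CPM at day 0 to 325 to 500.5 CPM. Fkbp11, a secretory chaperone, rose by 1.199 and 0.92 at days 14 and 21, and Slamf7 rose by 1.02 at day 14. Derl3, of endoplasmic reticulum degradation, and the B cell coactivator Pou2af1 fell by 1.24 and 1.31 at day 14. Without day 14 replicate 1 or 2, 3 of these genes were called at day 14, and without day 0 replicate 1 or 2 none was called at day 21.

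Of 7 listed genes of the germinal centre and of class switching, 5 were tested. Of these, 2 were called higher and 1 lower at day 14 (median -0.14; 12% and 11.2% of all genes), and 0 higher and 1 lower at day 21 (median -0.62; 12.4% and 10.1% of all genes). Ung, a base excision enzyme that all dividing cells use, rose by 0.91 at day 14 (SE 0.29, adjusted p = 0.0260), and S1pr2, a sphingosine receptor also found on vessels, rose by 0.71. Bcl6, a transcriptional repressor of germinal centre B cells and of other cells, fell by 0.69 at day 14 and by 0.76 at day 21.

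Several receptors that bind antibody rose. Of 10 tested, 5 were called higher and 2 lower at day 14, and 5 higher and 1 lower at day 21, with medians of 0.38 and 0.27. The shares over all genes were 12% higher and 11.2% lower at day 14, and 12.4% and 10.1% at day 21, so the number called lower is near the background. The IgG receptors Fcgr1, Fcgr2b and Fcgr3, carried by macrophages among other cells, rose by 2.13, 2.11 and 1.86 at day 14 (SE 0.21, 0.24 and 0.21), and by 2.03, 2.07 and 1.83 at day 21. Fcgr1 was at 5.40 to 6.99 CPM at day 0, 22.2 to 33.7 CPM at day 14 and 19.8 to 34.8 CPM at day 21. Pigr, which exports polymeric IgA, was at 31.7 to 104 CPM at day 0 and at 10.3 to 23.2 CPM at day 14, a log2 difference of -2.104 (SE 0.59, adjusted p = 0.0133). At day 21 Pigr was at 57.2, 5.87 and 5.59 CPM, and its log2 difference of -1.53 was not called (SE 0.64, adjusted p = 0.0852). Scgb1a1, the club cell secretory gene, was at 24634 to 31291 CPM at day 0 and at 1308 to 4811 CPM at day 21, and the share of epithelial loss in the fall of Pigr was not tested.

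Signals that recruit B cells and keep plasma cells alive were called in both directions. Of 14 tested, 2 were called higher and 3 lower at day 14 (median -0.21), and 3 higher and 3 lower at day 21 (median -0.04). Over all genes, 12% were called higher and 11.2% lower at day 14, and 12.4% and 10.1% at day 21. Il6, a cytokine that sustains plasma cells, rose by 3.08 at day 14 (SE 0.64, adjusted p = 0.00198) and by 2.23 at day 21. Ccl20, the ligand of Ccr6 on B cells, rose by 2.32 and 3.41 from a day 0 level of at most 0.388 CPM. The survival factor genes Tnfsf13b (BAFF) and Tnfsf13 (APRIL) fell by 0.67 and 0.91 at day 14, and Tnfsf13 by 1.21 at day 21. Cxcr5, which B cells use to follow the chemokine Cxcl13, fell by 1.71 and 2.04. Cxcl13 itself was at 1.90 to 18.1 CPM at day 0, 6.06 to 50.0 CPM at day 14 and 10.2 to 41.2 CPM at day 21 and was not called (adjusted p = 0.149 and 0.111).

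Genes of nearby lymphoid tissue were checked because a lymph node or thymus taken with the lung would bring B cells. Ccl21a, a chemokine of lymphatic vessels and lymph node stroma, was at 70.0 to 84.2 CPM at day 0 and rose by 0.60 at day 14 (adjusted p = 0.0326) and by 1.13 at day 21 (adjusted p = 0.00131). Of the list of 4 stromal genes, 2 were tested, and the other, Cr2, which B cells also carry, had log2 differences of -1.01 at day 14 (not called) and -1.74 at day 21 (adjusted p = 0.0285). The summed level, most of it Ccl21a, was 75.2 to 90.4 CPM at day 0, 47.6 to 85.7 at day 7, 74.3 to 161 at day 14 and 156 to 193 at day 21. Madcam1 was at 0.309 CPM at most. The 4 thymocyte genes summed to at most 1.27 CPM in any library, and Rag2 was at 0 in 14 of the 15 libraries. The part of lymphoid tissue in the day 21 levels was not tested.

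Outside the 10 genes and the other immunoglobulin gene segments, the genes whose pattern over the 15 libraries was most like that of Ighm were Adh7 (Pearson r 0.84), Eid2b, Terf2ip, Slc35f3 and Fam107b, out of 15279 genes with a mean of at least 1 CPM. For Ighg2c they were Dsel (0.83), Slc14a1, Agap2, Sptssb and Rbpj, and for Jchain they were Adat2 (0.88), Cxxc5, Sptssb, Ogfrl1 and Xylt1. Members of the family were closer to these 2 genes, with r 0.92 for Ighg2c and Igkc and 0.97 for Jchain and Igha. Sptssb stood in both of the last lists. None of these is a member of the B cell or plasma cell lists.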

How the data were processed

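The authors trimmed paired reads with TrimGalore, aligned them to GRCm38/mm10 with HISAT2 2.1.0, dropped multi-mapped reads and deposited raw counts per Ensembl gene made with HTSeq 0.6.0, with no normalization. The annotation release and the strand setting are not given in the sources used here. The study's methods used DESeq2 1.40.2. Groups and replicate numbers came from the sample titles. The series text gave another number of replicates than the titles.

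Symbols, coordinates, exon lengths and sequences came from GENCODE M21, which matched 33267 of 33340 identifiers. Coding sequences were aligned pairwise with Biopython 1.88. Counts were tested with edgeR 4.0.16 (R 4.3.3): filterByExpr, TMM factors and glmQLFTest, with 1 model for all 15 libraries that held the day group alone. The common biological coefficient of variation over all genes tested was 22.8%. The step was checked on simulated data with 200 changed genes, in which every gene was drawn at that common value. That check does not show how the test behaves for genes of wider spread. CPM is per TMM-scaled library size, and log2 values use a prior count of 2. DESeq2 1.42.0, limma 3.58.1 voom and the settings named in the closing section were alternatives.

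The 10 genes and the 11 companion lists were chosen with earlier results of these data known, and no list is independent evidence. Named were the 10 genes, up to 4 called genes per list with the largest change at day 14, a set taken whatever their values (Ms4a1, Cd79a, Prdm1, Xbp1, Sdc1, Tnfrsf17, Pigr, Cxcl13, Tnfsf13b and others not reported here), constant genes with at least 10 counts in a library, and the 5 genes of most similar pattern for Ighm, Ighg2c and Jchain. Madcam1 and Rag2 were named after their values were seen, as low markers. Fdcsp and Ighg2a were not analysed here.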

Additional observations from a re-analysis of the deposited data

Results flagged for a closer look

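Of 144 groups of 4 libraries examined, 12 held a library far from the other 3 of its day by Dixon's criterion. Chance alone flags about 5% of groups if values are normally distributed. The criterion was applied to CPM and not to log2 CPM. Its rate for these data was not tested, so the 12 flags are not weighed against it. Among the 10 genes, day 7 replicate 1 stood apart for Ighg2c (851 CPM, others 4.69 to 28.9), Ighg2b (80.5 CPM, others 1.31 to 12.5) and Ighg1 (28.7 CPM, others 0.0595 to 0.335). Day 7 replicate 3 stood apart for Ighg3 (93.0 CPM, others 0.279 to 6.57), and day 0 replicate 2 for Ighg2b (16.3 CPM, others 0.0558 to 1.02).

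Of the companion genes, Tnfrsf17 was at 0.736 CPM in day 7 replicate 1 (others 0.112 to 0.165), the library with the highest Ighg2c. Cxcl13 was at 18.1 CPM in day 0 replicate 2 (others 1.90 to 4.60) and at 50.0 CPM in day 14 replicate 1 (others 6.06 to 10.8). Bcl6 was at 75.9 CPM in day 0 replicate 1 (others 58.8 to 61.1) and at 51.5 CPM in day 7 replicate 3 (others 41.5 to 43.1). Fkbp11 was at 6.03 CPM in day 0 replicate 3. In day 7 replicate 2, Sftpc had 8190 CPM (others 15543 to 16309).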

How the results depend on the processing

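Of the values of single genes recomputed under alternatives, 746 kept their direction and side of the threshold, and the others were weaker (22), stronger (9), reversed (14) or moved (5). The causes were not tested. Leaving out 1 library at a time gave 2 to 7 of the 10 genes called at day 21 (6 with all), 0 to 5 past the thresholds at day 7 (3 with all) and 0 to 2 from day 7 to day 14 (1 with all). It gave 4 to 9 B cell genes at day 14 (8 with all) and 5 to 11 at day 21 (11 with all), and 3 to 5 plasma cell genes at day 14 (6 with all) and 0 to 2 at day 21 (2 with all). Log2 differences at day 14 then ranged from -1.03 to 2.25 for Ighg2b, -0.30 to 1.30 for Ighg2c and -1.31 to 1.04 for Ighg3. They ranged from -0.52 to 0.27 for Igkc, 1.33 to 2.59 for Igha and 0.09 to 1.55 for Jchain. At day 21 they ranged from -1.56 to -0.25 for Ighm and 2.94 to 4.49 for Jchain. For Ighg3 they ranged from -1.65 to 2.27 at day 21 and from -2.05 to 2.99 for day 21 against day 14. For Ighg1 they ranged from -0.71 to 5.08 at day 7 and from -3.89 to 1.83 for day 14 against day 7. For Mzb1 they ranged from -0.15 to 0.84 at day 7.

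Libraries of 1 mitochondrial share range gave 4 of the 10 genes, 2 B cell genes and 1 plasma cell gene called at day 14, and 0 of the 10 past the thresholds at day 7, with 2.097 for Ighg2b and 0.36 for Igkc at day 14. That share as a covariate gave 1 at day 7, 0 from day 7 to day 14 and 0.041 for Igkc at day 14. Without a filter 6 genes were past the thresholds at day 7 and 6 from day 7 to day 14. Voom gave 1 and 0 of the 10 genes there, 1 plasma cell gene at day 21, and 1.33 for Ighg2b and -0.22 for Ighg3 at day 14. From day 7 to day 14, DESeq2 gave 2 and a fit of the 2 groups alone gave 0. Igha was called higher and Ighd lower at day 21 under all 15 alternatives run for that comparison.

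Deviations from the day means correlated at -0.244 to 0.397 for same-numbered libraries of different days and at -0.326 to 0.258 for other-numbered ones. These ranges overlap and do not decide whether the replicate numbers pair the libraries. With the number as a block, 3 of the 10 genes were called at day 21, without Igkc (log2 difference 1.67, adjusted p = 0.0796), Ighg2c (3.51, adjusted p = 0.0518) and Ighg1 (3.97, adjusted p = 0.0734). Igha was then called higher at day 14 (2.03, adjusted p = 0.0120). The block also gave 1 plasma cell gene at day 21 and a day 14 log2 difference of -0.22 for Ighg2c. The low counts of Ighg1 and Ighg2c at day 0 limit their fold changes.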

Other observations

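The table also counts the variable segments, which are spliced to the constant genes in the antibody transcript. The segments below were chosen after their values were seen, and no test was run. In day 7 replicate 1, the library with the highest Ighg2c, the light chain segment Igkv4-69 held 5580 of 10633 light chain variable counts, 52.5% (95% Wilson interval 51.5% to 53.4%), and the heavy chain segment Ighv1-15 held 2771 of 7366 heavy chain variable counts, 37.6% (36.5% to 38.7%). The leading segment of the other 14 libraries held 7.91% to 31.3% of light chain and 6.80% to 30.5% of heavy chain variable counts. Ighv1-81 led the heavy chain segments in 8 of the 11 libraries taken after bleomycin and in 0 of the 4 day 0 libraries, with 12.8% to 30.5% of the counts where it led. Variable segments are close copies of each other, and reads with several alignments had been left out.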
